A study of Mus musculus with 18 samples.

Results

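Glycolysis below hexokinase was followed through 10 mouse genes, Gpi1, Pfkl, Aldoa, Tpi1, Gapdh, Pgk1, Pgam1, Eno1, Pkm and Ldha, which encode the enzymes that carry glucose 6-phosphate to pyruvate and lactate. They were taken by gene name, as the main forms of these enzymes, and all 10 of 10 were found among the 34745 genes of the count table and were among the 12782 genes kept for testing. None of the 10 differed past the test's threshold between macrophages labelled as Mkrn2 knockouts and wild-type macrophages, in whole-cell RNA or in either ribosome fraction. The enzymes were not alike in how their mRNAs were spread over the fractions. Set against the other 9, Pfkl mRNA was scarce in the monosome fraction, Tpi1 mRNA was abundant in both ribosome fractions, Pgam1 mRNA was abundant in monosomes and Ldha mRNA was higher in polysomes than in monosomes. Such values balance out over the 10, so a fall of some goes with a rise of others. Among all tested genes Ldha lay near the middle between these fractions. On this measure 4 of 10 enzymes did not overlap between polysome and monosome RNA. Of all tested genes 52.6% did not, set against the mean of the 10 enzymes. That reference is unlike the other 9 of each enzyme, so the share does not settle how common such differences are.

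The cells were mouse bone-marrow-derived macrophages, cultured for 6 days with macrophage colony-stimulating factor at 20 ng/ml and then exposed to lipopolysaccharide (LPS, a bacterial wall component) at 100 ng/ml for 8 h. The genotypes were Mkrn2+/+ (WT) and Mkrn2-/- (labelled KO). Mkrn2 encodes an RNA-binding E3 ubiquitin ligase, and the series asks how it acts on translation in inflammation. mRNA was sequenced from whole-cell lysate (total RNA) and from the polysome and monosome fractions of a polysome profile, with 3 libraries for each genotype and source, 18 in all. Every group had LPS, so these data hold no comparison with resting cells. The labels give neither strain, age nor allele design, and do not say whether replicates were separate animals or cultures, so p-values measure the spread between these libraries, which may be technical.

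Glycolysis splits glucose into pyruvate and yields ATP without oxygen. Macrophages exposed to LPS are known to draw on it heavily and to release lactate, and the transcription factor HIF-1α, which the same stimulus stabilises, is known to switch on genes of the pathway. An mRNA carried by several ribosomes sediments with the polysomes, and an mRNA carried by 1 ribosome sediments with the monosomes, so the split between these fractions is commonly read as ribosome loading. A monosome fraction may also hold RNA in other particles of like size.

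Total RNA libraries held 11402715 to 16711558 counts, polysome libraries 13006294 to 15759370 and monosome libraries 9190034 to 12606314. The iron-storage gene Fth1 made up 15.2% to 18.5% of monosome counts, but 2.52% to 3.29% of total and 1.78% to 2.79% of polysome counts. Mkrn2 itself remained in the KO-labelled libraries, at 57.1 ± 3.45 CPM (counts scaled to a common library depth by TMM, mean ± SD, n = 3) against 64.3 ± 3.98 for WT in total RNA. It stood at 85.6 ± 5.22 against 95.1 ± 5.40 in polysomes and 68.8 ± 5.85 against 89.2 ± 3.36 in monosomes, with edgeR adjusted p of 0.855, 0.79 and 0.086. In monosomes the genotypes did not overlap, and 2 of 15 alternatives passed the threshold, with adjusted p from 0.00945 (DESeq2) to 0.662. With Mkrn2 RNA present in every library, the counts do not show a loss of the gene, and the group is called KO-labelled throughout. All 8 macrophage markers were tested, with summed group means of 6839 to 10260 CPM. The 7 of 8 stromal markers that were tested had summed CPM of 289 (WT) and 353 (KO-labelled) in total RNA, 148.5 and 192.5 in polysomes and 290.2 and 350.1 in monosomes. Their median log2 difference, KO-labelled minus WT, was 0.37, 0.45 and 0.50. Of the 7, 0 passed the threshold in each source, where 0.0156%, 0.0156% and 0.25% of all tested genes did. At an unadjusted edgeR p under 0.05, 3, 5 and 4 of 7 passed, against 5.84%, 6.99% and 11.7% of all genes. The part of stromal RNA in the results was not tested. B cell and neutrophil markers summed to at most 12.5 CPM in any group, and no T cell or erythroid marker passed the filter on low counts.

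The first steps prepare the sugar. Gpi1 (ENSMUSG00000036427, chromosome 7, 34201330 to 34230336) turns glucose 6-phosphate into fructose 6-phosphate. Pfkl (ENSMUSG00000020277, chromosome 10, 77986947 to 78010083) is the liver-type subunit of phosphofructokinase, the committed and most regulated step. Aldoa (ENSMUSG00000030695, chromosome 7, 126795234 to 126800751) splits the product into a pair of trioses, which Tpi1 (ENSMUSG00000023456, chromosome 6, 124810586 to 124814296) interconverts. The later steps recover energy. Gapdh (ENSMUSG00000057666, chromosome 6, 125161715 to 125166467) makes NADH, Pgk1 (ENSMUSG00000062070, chromosome X, 106187100 to 106203699) makes the first ATP, Pgam1 (ENSMUSG00000011752, chromosome 19, 41911871 to 41918664) and Eno1 (ENSMUSG00000063524, chromosome 4, 150236721 to 150248879) rearrange the carbon chain, and Pkm (ENSMUSG00000032294, chromosome 9, 59656368 to 59679375) makes pyruvate and the last ATP. Ldha (ENSMUSG00000063229, chromosome 7, 46841475 to 46855627) reduces pyruvate to lactate and returns NAD+. Positions are those of the deposited table, and 9 of the 10 are the same in the GENCODE annotation of GRCm38. Pgam1 is the exception.

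Sequence around the annotated start codon, where ribosomes are taken to begin, is shown for 4 enzymes. They are those with the widest differences between fractions in relation to the other 9. Each stretch runs 5′ to 3′ along the GENCODE principal transcript (GRCm38), with 9 bases before the start codon and the start codon in capitals.
Pfkl (chromosome 10, minus strand, start codon from 78009683): gctgccgccATGgct
Tpi1 (chromosome 6, minus strand, start codon from 124814272, the annotated form of 299 codons): gagaggcagATGgag
Pgam1 (chromosome 19, plus strand, start codon from 41912048): cccgtcgccATGgct
Ldha (chromosome 7, plus strand, start codon from 46847620): aagtccaagATGgca
Pfkl and Pgam1 share the letters gccATGgct at this point, and Gpi1 has them as well. The Tpi1 start codon shown lies before the RefSeq transcript start, and other annotated forms of Tpi1 were not examined. The stretches are given as annotated sequence of these genes, and no relation with the fractions was tested.

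Promoter sequence is shown for Ldha and Pgk1, both textbook HIF-1α targets, from 250 bases before to 50 bases after the RefSeq transcript start (GRCm38.p6, 5′ to 3′ along the gene). Capitals mark ACGTG and GCGTG, the core letters that HIF-1α is known to bind, searched on both strands, so that they also appear as CACGT and CACGC, and a palindromic CACGTG counts once on each strand.
Ldha (chr7:46845554-46845853, plus strand): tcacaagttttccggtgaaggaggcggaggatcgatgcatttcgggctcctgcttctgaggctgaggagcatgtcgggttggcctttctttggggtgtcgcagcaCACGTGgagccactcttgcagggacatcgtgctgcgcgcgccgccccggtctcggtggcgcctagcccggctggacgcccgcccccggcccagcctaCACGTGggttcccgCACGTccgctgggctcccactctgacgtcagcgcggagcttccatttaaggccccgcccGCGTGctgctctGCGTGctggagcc
Pgk1 (chrX:106186850-106187149, plus strand): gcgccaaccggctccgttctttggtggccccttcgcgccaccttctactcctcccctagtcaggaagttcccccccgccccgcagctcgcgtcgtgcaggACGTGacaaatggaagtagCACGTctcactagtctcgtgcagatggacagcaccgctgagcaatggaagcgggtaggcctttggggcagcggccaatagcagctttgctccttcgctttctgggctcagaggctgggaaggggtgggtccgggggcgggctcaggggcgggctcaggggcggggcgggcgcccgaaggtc
The Ldha stretch held 5 matches of ACGTG and 2 of GCGTG, and the Pgk1 stretch held 2 of ACGTG. The other Ldha promoter (chr7:46846832-46847131), not shown, held 0 of ACGTG and 2 of GCGTG. RefSeq promoters were found for all 10 enzymes, 16 in all, and 12 of the 16, for 8 of the 10 enzymes, held at least 1 match. Some of the 16 overlap each other, as for Aldoa and Eno1. Of all 32851 mouse promoters of the same length, 43.77% held a match, 19.62% one of ACGTG and 32.39% one of GCGTG. These shares are per promoter and not per gene. A match is a description of the letters and not a binding site.

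The levels in WT total RNA spanned the pathway unevenly. By the deposited FPKM (counts per kilobase of gene length, scaled to depth), Pkm stood at 248 ± 5.30 (mean ± SD, n = 3), Ldha at 180 ± 7.03 and Pgam1 at 175 ± 9.82, and the ranges of Ldha and Pgam1 overlapped. Pgk1 at 97.9 ± 9.85 and Aldoa at 91.7 ± 2.79 overlapped as well, followed by Tpi1 at 52.0 ± 0.993. Gpi1 at 16.96 ± 2.79 and Eno1 at 12.4 ± 1.99 overlapped, Pfkl stood at 8.91 ± 1.35 and Gapdh was lowest at 1.32 ± 0.405. The order depends on the gene length used. The FPKM imply a length of 9152 bases for Gpi1, 8626 for Gapdh, 7863 for Eno1 and 5910 for Aldoa, against 2884, 1272, 2027 and 1511 bases in 1 GENCODE coding transcript of each. Per kilobase of that transcript, a scale chosen after these lengths were seen, Ldha was first at 369 ± 15.3 scaled CPM, followed by Aldoa at 283 ± 6.88 and Pkm at 209.5 ± 3.92. Pgam1 at 143 ± 8.89 and Pgk1 at 129.5 ± 13.7 overlapped, Tpi1 stood at 101 ± 2.49, Gpi1 at 42.5 ± 7.05 and Eno1 at 38.0 ± 6.23 overlapped, as did Pfkl at 9.20 ± 1.37 and Gapdh at 7.07 ± 2.22. Ldha, Pkm and Aldoa were thus among the 5 highest, and Pfkl and Gapdh the lowest, on both scales of level.

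**Figure D1:**
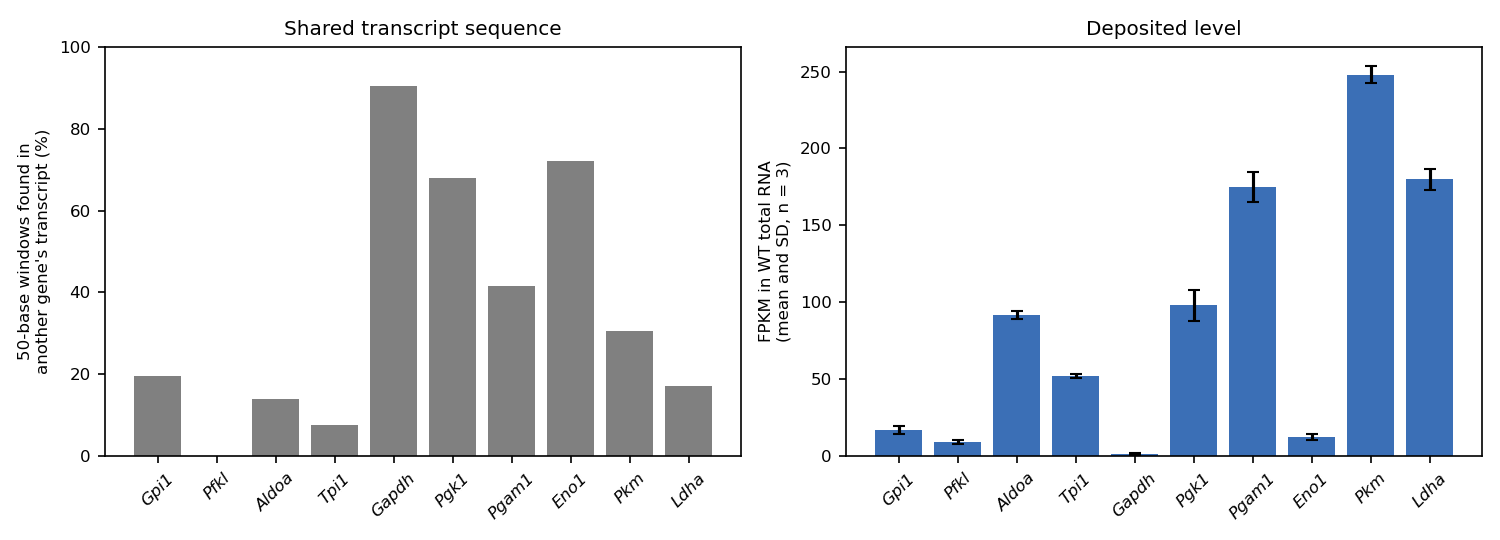
The left panel shows the share of each enzyme's 50-base transcript windows found in the transcript of another gene (percent), and the right panel the deposited FPKM in WT total RNA (bars, mean; lines, SD, n = 3). Gapdh has the highest share, 90.43%, and the lowest level, 1.32, while Pfkl has a share of 0.0543%.

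Several of these genes have near-identical copies, which makes their counts uncertain. Gapdh, which is usually among the most abundant mRNAs of a cell, had only 60 to 175 counts per library, and 90.43% of its 50-base windows occurred in transcripts of 222 other genes, 213 of them pseudogenes. The share was 72.19% for Eno1, mostly with the related gene Eno1b, 67.96% for Pgk1, 41.48% for Pgam1 and 30.51% for Pkm. It was 19.58% for Gpi1, 17.12% for Ldha, 13.89% for Aldoa, 7.51% for Tpi1 and 0.0543% for Pfkl. Pfkl and Tpi1 were thus the enzymes with the least shared sequence. Of the Gpi1 windows 555 were shared, and 527 occurred in the processed pseudogene Gm1840, which had a mean of 302.6 counts per library. How reads that match several places were counted is not given in the sources used here, and the part of shared sequence in the low Gapdh count was not tested.

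The Pgam1 coding sequence shows the extent of such sharing. All 762 bases are the same in the processed pseudogene Pgam1-ps2 on chromosome 7, which had counts of its own. The first 60 coding bases, identical in both (GENCODE, GRCm38), follow.
Pgam1 and Pgam1-ps2: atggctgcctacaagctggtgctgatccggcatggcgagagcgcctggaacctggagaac
Pgam1-ps2 stood at 16.3 ± 0.460 scaled CPM in WT total RNA, 8.38 ± 1.37 in polysomes and 5.03 ± 1.39 in monosomes, against 253 ± 15.8, 215.5 ± 9.64 and 476 ± 33.8 for Pgam1. The counts assigned to the pseudogene fell from total to monosome RNA (log2 difference -1.69 ± 0.18 (SE), edgeR adjusted p 5.5e-07), while those assigned to Pgam1 did not. Eno1b was likewise lower in WT monosome than in total RNA (log2 difference -0.82 ± 0.25, edgeR adjusted p 0.00934). Of the 14 listed copies 4 had enough counts to be tested, and 3 of the 4, the other being Ldha-ps2 at -0.99 ± 0.34, were lower in WT polysome than in total RNA. The fourth, Tpi-rs11, did not pass, with 3.74 ± 1.36 scaled CPM in WT total RNA and 4.14 ± 0.717 in polysomes.

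Between genotypes the enzymes lay close together. In total RNA 0 of 10 passed the threshold (edgeR quasi-likelihood F test, Benjamini-Hochberg adjusted p under 0.05), where 0.0156% of the 12782 tested genes did. In such bulk samples, fewer cells of a type and less RNA per cell cannot be told apart. In polysome RNA it was 0 of 10 against 0.0156% of all genes, and in monosome RNA 0 of 10 against 0.25%. At an unadjusted p under 0.05, 1 of 10 passed in total RNA, against 5.84% of all genes, 0 in polysome RNA, against 6.99%, and 0 in monosome RNA, against 11.7%. The median log2 difference of the 10, KO-labelled minus WT, was -0.01, 0.03 and -0.03 in total, polysome and monosome RNA, beside 0.01, 0.01 and -0.01 over all tested genes. DESeq2, limma-voom and every library left out in turn also called 0 of 10 in each of these 3 sources.

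The 30 estimates, 10 enzymes in 3 sources, ran from -0.33 to 0.38 on the log2 scale. All 30 had 95% intervals that lay within a 2-fold change in either direction, and 25 had intervals within 1.5-fold. The intervals were narrowest for Pgam1, at -0.28 to 0.00 in total RNA, and for Pkm, at -0.16 to 0.17. They were widest for Gapdh, at -0.81 to 0.15 in monosome RNA, and for Gpi1, at -0.37 to 0.54. A p that misses the threshold does not show that the levels were equal, but changes beyond these bounds lie outside the intervals of the fit.

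**Figure D2:**
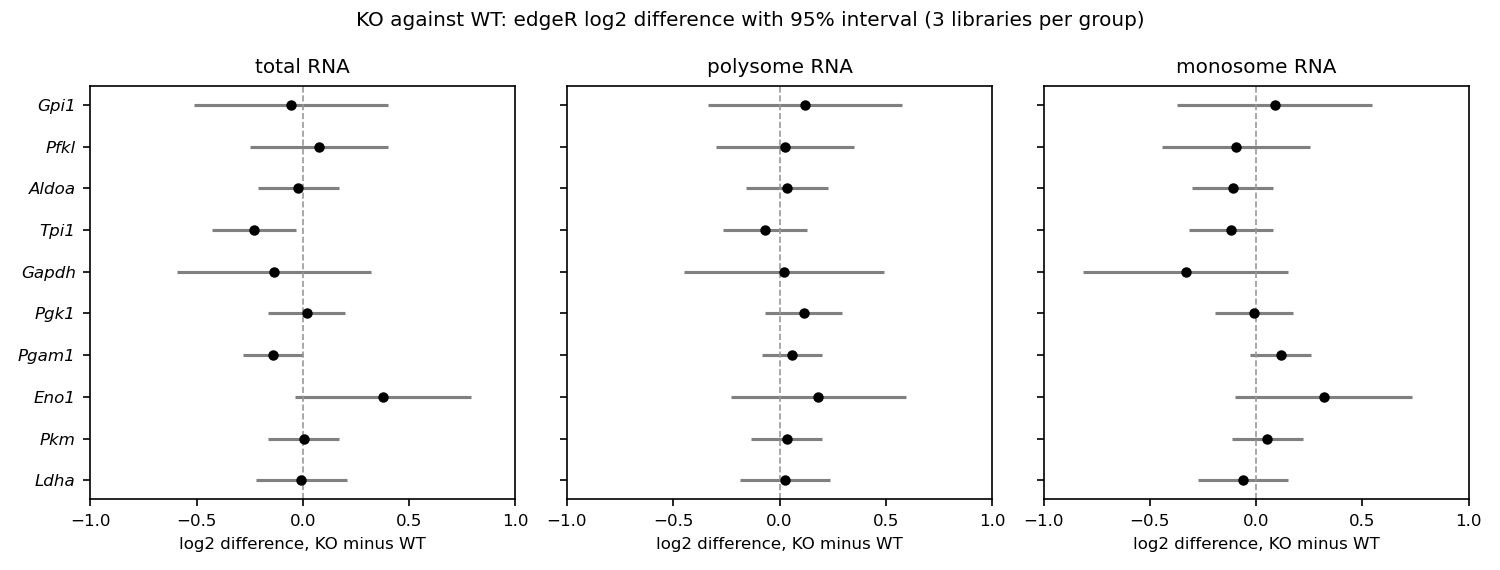
Points give the edgeR log2 difference, KO-labelled minus WT, of each enzyme in total, polysome and monosome RNA, and lines its 95% interval (3 libraries per group). The points lie between -0.33 and 0.38, and 29 of the 30 intervals span 0, the exception being Tpi1 in total RNA.

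Tpi1 and Pgam1 were the enzymes whose libraries did not overlap between genotypes in total RNA. Tpi1 stood at 165, 158 and 164 scaled CPM in the 3 WT libraries and at 153, 142 and 119.7 in the KO-labelled ones. The KO-labelled libraries were lower, with a log2 difference of -0.23 ± 0.09 (SE), an edgeR p of 0.0255 and an adjusted p of 0.732. Pgam1 stood at 271, 240.1 and 249 in WT and at 233, 236 and 219 in KO-labelled total RNA, and differed by -0.14 ± 0.07 with an edgeR adjusted p of 0.855. These are 2 of the 10 enzymes, and 13.6% of all tested genes did not overlap in total RNA, with 6.56% of all tested genes lower. In polysome RNA and in monosome RNA 0 of the 10 were without overlap, against 14.9% and 12.5% of all genes.

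Eno1 had the largest estimate in total RNA. It stood at 89.6, 76.9 and 64.3 scaled CPM in WT and at 107, 108 and 85.3 in KO-labelled libraries, which overlap, with a log2 difference of 0.38 ± 0.19 and an edgeR adjusted p of 0.893. In polysome RNA its levels were 85.5, 95.7 and 85.7 against 90.6, 101 and 111, and in monosome RNA 105, 123 and 125 against 102, 206 and 132. KO-labelled monosome replicate 2, at 206, lay above all other Eno1 values. The differences were 0.18 ± 0.19 and 0.32 ± 0.20, with edgeR adjusted p of 0.962 and 0.576. The Eno1 estimate was positive in all 3 sources without passing the threshold in any, but the monosome estimate was -0.0056 without KO-labelled replicate 2.

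Pgk1 and Pgam1 had the smallest p in polysome RNA beside Eno1. Pgk1 stood at 223, 187 and 178 scaled CPM in WT polysomes and at 228, 207 and 201 in KO-labelled ones, a log2 difference of 0.11 ± 0.09 with an edgeR adjusted p of 0.918. Pgam1 stood at 227, 209.9 and 209.9 against 236, 217 and 221, a difference of 0.06 ± 0.07. The libraries overlapped for both. In monosome RNA Pgam1 stood at 513, 469 and 447 in WT and 528, 512 and 508 in KO-labelled libraries, a difference of 0.12 ± 0.07 with an edgeR adjusted p of 0.547. Gapdh stood at 9.84, 15.8 and 12.3 against 8.85, 8.73 and 12.7, a difference of -0.33 ± 0.23 with an adjusted p of 0.623 in the same edgeR test. Both overlapped between genotypes.

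**Figure D3:**
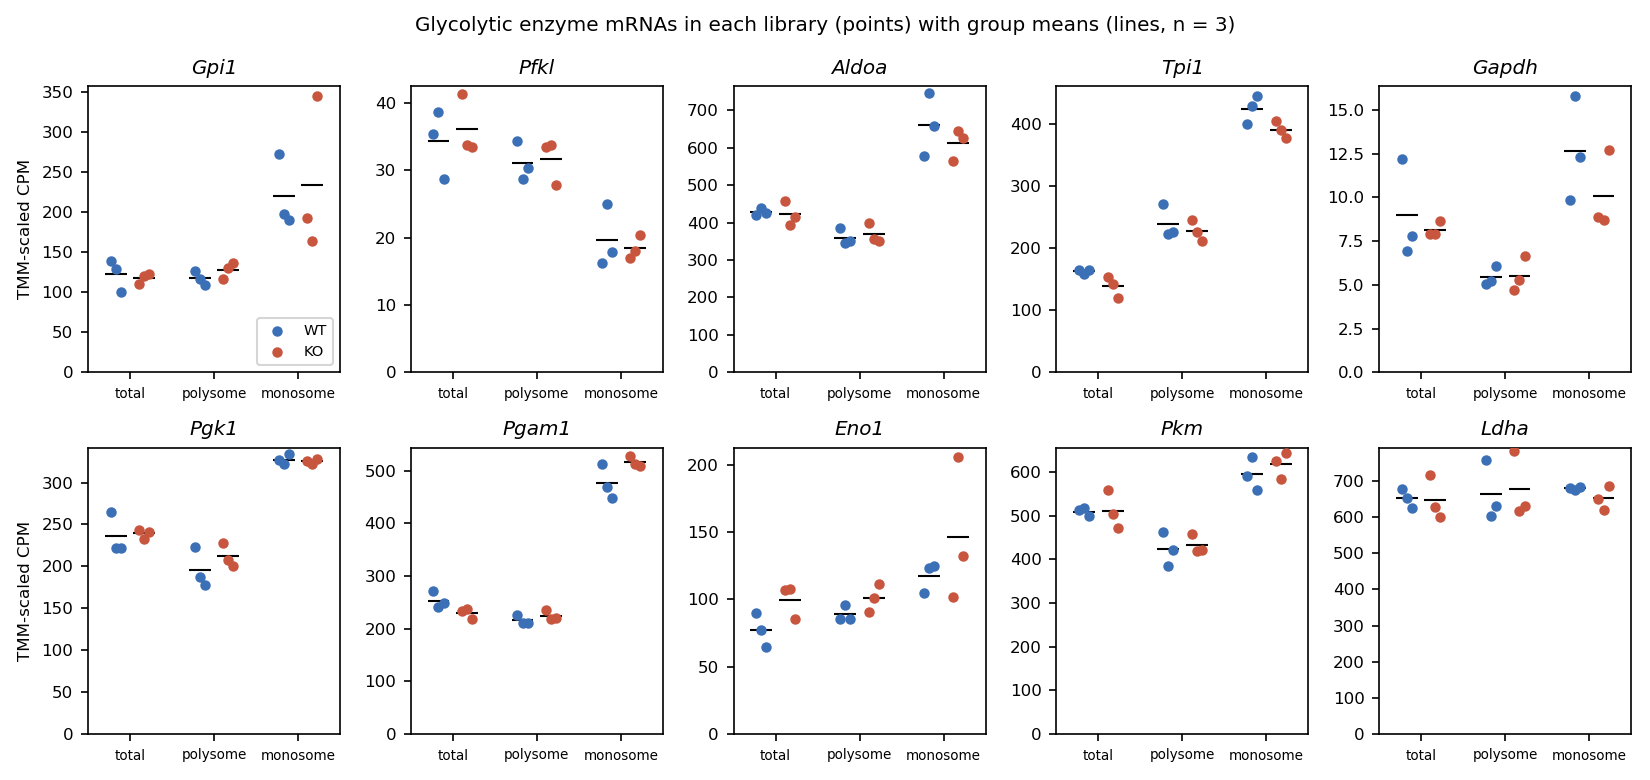
Scaled CPM of the 10 enzymes in each of the 18 libraries (points; WT blue, KO-labelled red) with group means (lines, n = 3), by RNA source. The genotypes lie close together within each source, and the height of monosome against total and polysome RNA follows the scaling between sources, which turns for most enzymes without it.

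The balance between fractions was also compared between genotypes, as the study's question is about translation. For the polysome-to-total ratio 0 of 10 enzymes passed the threshold, where 0% of all genes did. For the polysome-to-monosome and the monosome-to-total ratio it was 0 of 10 against 0.0548% of all genes in each. Among these 30 estimates, which share libraries, 1 had an unadjusted edgeR p under 0.05, where 1.79%, 5.3% and 5.28% of all genes did in the 3 ratios. This was the Pgam1 monosome-to-total ratio, higher in KO-labelled cells by 0.26 ± 0.09 on the log2 scale, with a p of 0.016 and an adjusted p of 0.877. The estimates ran from -0.20 to 0.35, the highest being the Gapdh polysome-to-monosome ratio at 0.35 ± 0.32.

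Hexokinase, the step just above these enzymes, did differ. Hk1 traps glucose in the cell as glucose 6-phosphate. It stood at 84.0, 85.2 and 85.4 scaled CPM in the WT monosome libraries and at 12.8, 10.7 and 12.4 in the KO-labelled ones, with no overlap, a log2 difference of -2.82 ± 0.08 and an edgeR adjusted p of 4.67e-12. In total RNA its difference was -0.21 ± 0.07 and in polysome RNA -0.25 ± 0.07, with edgeR adjusted p of 0.586 and 0.358. Gpi1, which takes its product, stood at 273, 198 and 189.9 scaled CPM in WT and 193, 163 and 345 in KO-labelled monosome RNA, where the groups overlap. Hk2 and Hk3, the other hexokinases tested, had monosome differences of -0.12 ± 0.10 and -0.20 ± 0.15, which did not pass.

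The pathway around the enzymes was described through 7 further lists of 81 genes, 67 of them tested. Between genotypes, Hk1 in monosome RNA was the only gene of the 67 that passed the threshold in any of the 3 sources. By list, the gene of smallest p, with Slc2a1 beside it, had the following edgeR log2 difference. Of 5 glucose transporters, Slc2a1, the main carrier, differed by -0.45 ± 0.33 in monosome RNA (adjusted p 0.666) and by -0.0096 without KO-labelled monosome replicate 2, and Slc2a3, the carrier of smallest p, by 2.81 ± 1.17 there (adjusted p 0.368), from group means of 0.333 counts in WT and 3 in KO-labelled libraries. Of 7 tested other isoforms, Ldhb, the heart-type lactate dehydrogenase subunit, differed by -0.56 ± 0.21 in monosome RNA (adjusted p 0.293). Of 6 regulators, Pfkfb4, which makes the phosphofructokinase activator fructose 2,6-bisphosphate, differed by -0.36 ± 0.21 in polysome RNA (adjusted p 0.82). Of 15 genes of lactate and pyruvate handling, Slc16a1, a lactate carrier, differed by 0.36 ± 0.13 in monosome RNA (adjusted p 0.289). Of 11 genes of side branches, Pgm1, which links glycolysis to glycogen, differed by 0.24 ± 0.13 in monosome RNA (adjusted p 0.501). Of 20 genes of the HIF pathway and other hypoxia targets, P4ha2, a collagen prolyl hydroxylase, differed by 0.70 ± 0.22 in polysome RNA (adjusted p 0.439).

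Between fractions the enzymes differed widely from each other. With TMM scaling, 1 of 10, Pfkl, was higher in WT polysome than monosome RNA and 7 of 10 were lower, beside 26.2% higher and 29% lower of all genes. With no scaling beyond library size the same comparison gave 5 higher and 0 lower, and that choice moves the median of all tested genes from 0.01 to 1.01 on the log2 scale. Counts with no scaling, here and below, stand without the share of all genes called. They show the shift and not a trait of the enzymes. A change of scaling moves all genes of a comparison by nearly the same amount. A place against the median of all genes is therefore kept by construction, and is no check of the scaling. Pfkl lay above that median and the other 9 below it, and the median of the 10 lay 0.79 below the median of all genes. In KO-labelled cells 1 of 10 was higher and 8 were lower with TMM, beside 28.6% and 29.5% of all genes, and 7 were higher and 1 lower with no scaling, where the median of all genes was 1.04 against 0.03. There 2 of the 10, Pfkl and Ldha, lay above the median of all genes and 8 below it. The share of libraries' counts that fell on the 10 was 0.224% ± 0.00690 in WT monosome RNA, 0.298% ± 0.0190 in polysome RNA and 0.314% ± 0.0121 in total RNA (mean ± SD, n = 3). Without the counts of Fth1 and of mitochondrially encoded genes these shares were 0.283%, 0.310% and 0.330%.

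**Figure D4:**
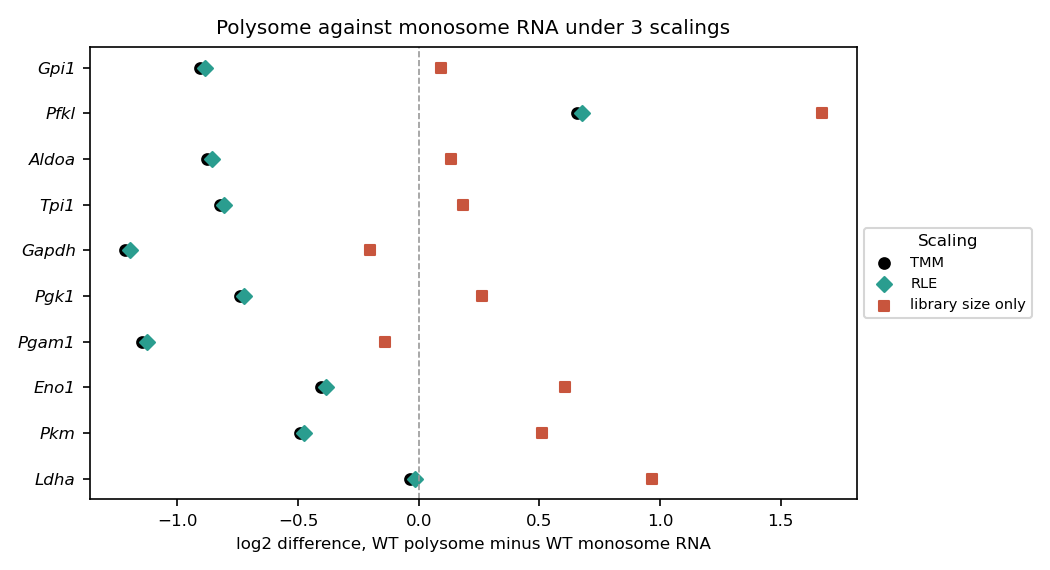
The log2 difference of each enzyme, WT polysome minus WT monosome RNA, under TMM scaling, RLE scaling and library size alone. TMM and RLE give nearly the same values, while library size alone moves every value up by about the shift of the median of all genes, so that Gpi1, Aldoa, Tpi1, Pgk1, Eno1, Pkm and Ldha change sign and Pfkl stays positive.

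Pfkl was the only enzyme of the 10 above the median of all genes in WT polysome against monosome RNA. It stood at 34.3, 28.7 and 30.4 scaled CPM in WT polysomes and at 16.2, 25.03 and 17.9 in WT monosomes, with no overlap. The log2 difference was 0.66 ± 0.16 (edgeR adjusted p 0.00238), and in KO-labelled cells 0.78 ± 0.16 (adjusted p 0.000591 in the same edgeR test). Its KO-labelled levels were 33.5, 33.7 and 27.9 in polysomes and 17.04, 17.98 and 20.5 in monosomes. In total RNA Pfkl stood at 35.5, 38.8 and 28.7 in WT, overlapping the polysome values. Pfkl thus had less of its mRNA signal in monosomes, against other genes, in both genotypes. This does not extend to the whole step. Pfkp, another phosphofructokinase gene, overlapped between WT polysome and monosome RNA, with a log2 difference of 0.18 ± 0.16 (edgeR adjusted p 0.363).

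Pgam1 and Gapdh lay at the other end. Pgam1 stood at 227, 209.9 and 209.9 scaled CPM in WT polysomes and 513, 469 and 447 in WT monosomes, a log2 difference of -1.14 ± 0.07 (edgeR adjusted p 1.71e-09) with TMM and -0.14 with no scaling. Pgam1 lay below the median of all genes. Gapdh, with its few counts, stood at 5.06, 5.25 and 6.07 in polysomes and 9.84, 15.8 and 12.3 in monosomes, a difference of -1.22 ± 0.22 (edgeR adjusted p 0.000261) with TMM and -0.20 with no scaling. Neither enzyme overlapped between these fractions after TMM scaling. Aldoa, Gpi1, Tpi1, Pgk1 and Pkm had TMM differences of -0.88 ± 0.09, -0.91 ± 0.22, -0.82 ± 0.09, -0.74 ± 0.09 and -0.49 ± 0.08, each past the threshold, and all 5 turned positive with no scaling. Eno1 at -0.40 ± 0.19 and Ldha at -0.04 ± 0.10 did not pass. Eno1 did pass, at -0.37 with an edgeR adjusted p of 0.0156, when only the libraries compared were fitted.

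Polysome and total RNA had TMM factors of like size, so this comparison moved little with the scaling. In WT, 1 of 10 was higher and 5 were lower, beside 16.5% higher and 16.5% lower of all genes, and in KO-labelled cells 1 was higher and 1 lower, beside 16% and 15.8%. The enzyme that rose was Tpi1 in both. Tpi1 stood at 270.4, 222 and 225 scaled CPM in WT polysomes against 165, 158 and 164 in WT total RNA, with no overlap, a log2 difference of 0.56 ± 0.09 (edgeR adjusted p 0.000337). In KO-labelled cells it stood at 246, 227 and 212 against 153, 142 and 119.7, a difference of 0.72 ± 0.09 (edgeR adjusted p 6.19e-05). The enzymes that fell in WT were Aldoa by 0.25, Gapdh by 0.71, Pgk1 by 0.27, Pgam1 by 0.23 and Pkm by 0.27 on the log2 scale. The count of 5 fell to 0 without WT polysome replicate 2, to 1 without WT total replicate 1 and to 2 without WT polysome replicate 3. Pkm was the enzyme that fell in KO-labelled cells, by 0.24, and it did not pass without KO total replicate 1 or 2 or without KO polysome replicate 2 or 3. The Gapdh difference was -0.43 without WT total replicate 1, which held 175 of its counts.

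Monosome and total RNA gave 7 higher and 1 lower of 10 in WT with TMM, beside 31.4% higher and 31% lower of all genes, and 1 higher and 6 lower with no scaling, where the median of all genes was -1.03 against -0.04. In KO-labelled cells it was 7 higher and 1 lower, beside 32.4% and 33%, and 1 higher and 7 lower with no scaling, where that median was -1.07 against -0.05. Against the median of all genes, a place that the scaling leaves nearly unmoved, 9 of 10 were higher and Pfkl was lower in both genotypes. Tpi1 had the largest rise, 1.38 ± 0.09 in WT (edgeR adjusted p 4.94e-09) and 1.496 ± 0.10 in KO-labelled cells (adjusted p 1.85e-09 by edgeR). Pgam1 followed with 0.91 ± 0.07 and 1.17 ± 0.07. Pfkl was the enzyme that fell, with -0.80 ± 0.16 and -0.97 ± 0.16. Eno1 in KO-labelled cells rested on monosome replicate 2: its difference of 0.55 became 0.23 and did not pass without that library, and its polysome-to-monosome difference of -0.54 became -0.21. Neither passed when only the libraries compared were fitted, with edgeR adjusted p of 0.0794 and 0.11. Gpi1 rested in part on KO-labelled monosome replicate 3, at 345 scaled CPM: its difference of 0.99 was 0.60 without that library, and its polysome-to-monosome difference of -0.87 was -0.48, both still past the threshold.

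A measure that needs no scaling between libraries was added after this dependence was seen: the log2 count of an enzyme minus the mean log2 count of the other 9 in the same library. It compares the enzymes with each other and was described over the 6 libraries of each source, without a test. For Pfkl it ran from -2.46 to -2.08 in total RNA, from -2.56 to -2.24 in polysome RNA and from -3.97 to -3.44 in monosome RNA. Against the other 9, Pfkl was thus 2.69-fold higher in polysomes than in monosomes and did not overlap between them, and 2.86-fold lower in monosomes than in total RNA. Its total and polysome values overlapped.

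For Tpi1 the same measure ran from -0.21 to 0.34 in total RNA, from 0.69 to 1.03 in polysome RNA and from 0.90 to 1.305 in monosome RNA. Tpi1 mRNA was 1.74-fold higher in polysomes and 2.11-fold higher in monosomes than in total RNA, each without overlap over the 6 libraries, and the ribosome fractions overlapped with each other. Both ribosome fractions were therefore richer in Tpi1 than the whole-cell RNA was, in relation to the other 9. For Pgam1 it ran from 0.70 to 1.003 in total RNA, from 0.74 to 0.82 in polysome RNA and from 1.26 to 1.68 in monosome RNA. Pgam1 was 1.61-fold lower in polysomes than monosomes and 1.55-fold higher in monosomes than in total RNA.

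Ldha, the enzyme that makes lactate, showed the opposite lean in relation to the other 9, on a measure where some enzymes must lean against others. Among all tested genes it lay near the middle: its polysome-minus-monosome difference was at percentile 47.9 in WT and 51.1 in KO-labelled cells. Its measure ran from 2.34 to 2.496 in total RNA, from 2.42 to 2.75 in polysome RNA and from 1.85 to 2.02 in monosome RNA. It was 1.53-fold higher in polysomes than in monosomes and 1.40-fold lower in monosomes than in total RNA, without overlap, although its TMM-scaled level was nearly level across sources, at 652 ± 27.0, 664 ± 82.8 and 681 ± 3.97 scaled CPM in WT. Aldoa was 1.21-fold lower in polysomes than in monosomes, Gapdh 1.52-fold and Pkm 1.15-fold lower in polysomes than in total RNA, each without overlap. In all, 4 of 10 did not overlap between polysome and monosome RNA, 4 between monosome and total RNA and 3 between polysome and total RNA. Of all tested genes, set against the mean of the 10 enzymes, 52.6%, 55.9% and 26.9% did not overlap in these comparisons. The enzymes were set against the other 9, so these shares have an unlike reference. In WT polysome against monosome RNA the median of the 10 differed from that of all genes by -0.79. In WT monosome against total RNA it differed by 0.59. A typical gene is thus displaced from the mean of the 10 there, and those shares cannot be read beside the counts. In WT polysome against total RNA the difference was -0.16, and 3 of 10 lay near the 26.9%.

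**Figure D5:**
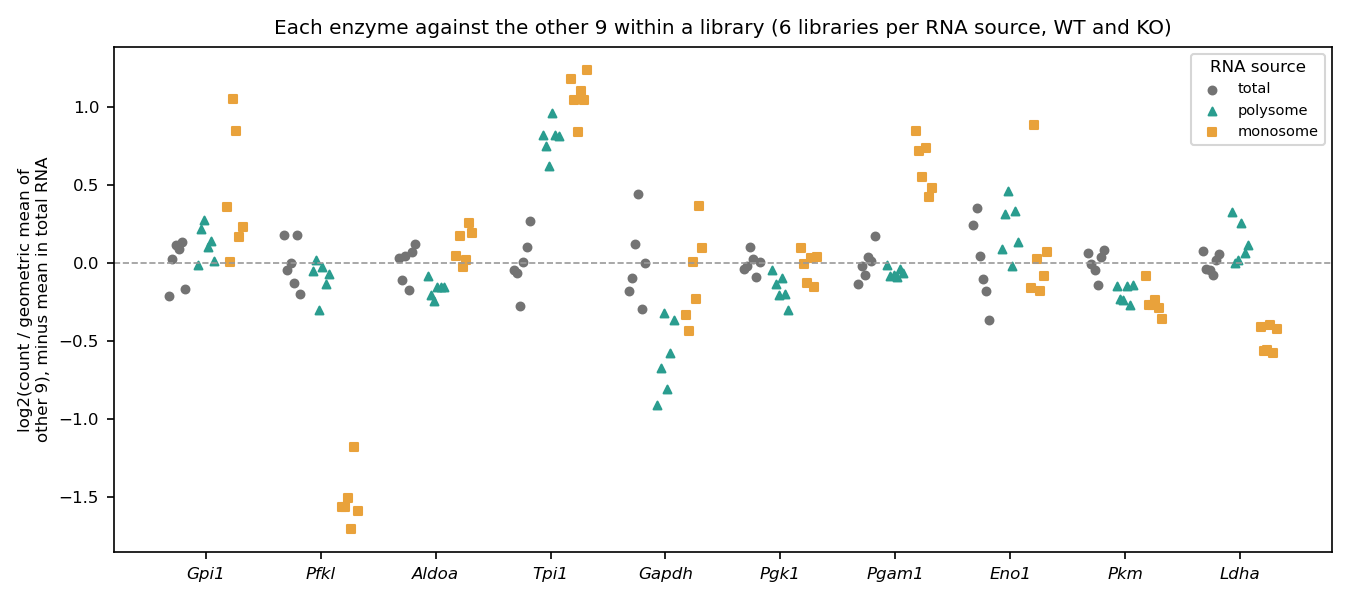
Log2 count of each enzyme over the geometric mean of the other 9 in the same library, minus its mean in total RNA, for the 6 libraries of each source (WT and KO-labelled together). Pfkl and Ldha lie below 0 in the monosome libraries, Tpi1 lies above 0 in both ribosome fractions and Pgam1 in monosomes.

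The wider pathway was mixed between WT polysome and monosome RNA. Of its 67 tested genes 16 were higher and 20 lower with TMM scaling, beside 26.2% and 29% of all genes. The gene of smallest p in each list, with its edgeR log2 difference, was Slc2a6, a sugar transporter, at -0.65 ± 0.09, Hk1 at 0.35 ± 0.07, Eno2, the neuronal enolase, at 0.90 ± 0.11, G6pc3, a glucose 6-phosphatase, at -0.51 ± 0.14, Pdk3, a kinase that restrains pyruvate dehydrogenase, at -0.92 ± 0.11, Pgm1 at -0.97 ± 0.13 and Hif1an, the asparagine hydroxylase that restrains HIF-1α, at 1.35 ± 0.14. All 7 passed the threshold with TMM, and Slc2a6, G6pc3, Pdk3 and Pgm1 turned positive with no scaling, while Hk1, Eno2 and Hif1an stayed positive. The HIF list had 7 higher and 7 lower of 20, the lactate and pyruvate list 2 higher and 7 lower of 15, and the side branches 1 higher and 2 lower of 11. Among the other isoforms, 1 was higher and 2 were lower of 7 tested.

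Coding length was set beside the fractions, since longer coding sequences can hold more ribosomes. Lengths are those of 1 GENCODE coding transcript per gene. Among these, Pfkl has the longest coding sequence of the 10, at 2340 bases, and Pgam1 the shortest, at 762. Tpi1 entered at 897 bases, as the form of 299 codons whose start codon lies before the RefSeq transcript start. The place of Pgam1 and the correlation over the 10 rest on that choice, and other forms were not measured. Across the 10 enzymes the Spearman correlation of coding length with the WT polysome-minus-monosome log2 difference was 0.43, and across 11680 tested genes with a coding length it was 0.398. These are descriptions across genes, which are not independent and share the same libraries. In 5 classes of like size, from the shortest to the longest coding sequence, the median log2 difference was -0.44, -0.24, 0.00, 0.21 and 0.47. Pfkl at 0.66 lay above the median of its class, which spans 1593 to 2424 bases, and Pgam1 at -1.14 below that of its own, which spans 726 to 1128.

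The mean profile of the 10 over the 6 groups was also compared with every other tested gene, by the root mean square of the differences in centred log2 level over the 6 group means. The most alike genes outside the 10 were Mak16, at 0.02, and Smarcb1, Decr1, Osgin2 and Ddx52, at 0.03 each. Of the enzymes themselves Pgk1 lay closest to that mean, at 0.07, then Pkm at 0.10 and Aldoa at 0.11. Pfkl lay farthest, at 0.62, with Tpi1 at 0.42 next. Ranked with all tested genes, Pgk1 was number 89 and Pfkl number 9858. The 10 enzymes therefore did not share 1 profile, and the mean of their profiles is a fair account of Pgk1, Pkm and Aldoa more than of Pfkl or Tpi1.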

How the data were processed

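The authors deposited raw counts per gene for 18 libraries and, beside them, FPKM values. The authors' FPKM behave as counts divided by 1 length per gene and by depth: for 9535 genes averaging 50 counts or more, the length they imply varied by no more than 0.0702% across libraries. FPKM served for levels alone. Libraries were made with a SMARTer mRNA-Seq kit, per the labels' protocols. Tools listed in the submitters' processing notes are HISAT2 2.0.4, StringTie 1.3.0 and fastp 0.23.2. The genome build, the annotation, strandedness and the handling of multiply mapped reads are not given in the sources used here. Of 34267 genes found by identifier in GENCODE M21 (GRCm38), 80.79% had the same position.

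Counts were fitted in R 4.3.3 with edgeR 4.0.16 (filterByExpr, TMM, 1 mean per group over 18 libraries, two-sided quasi-likelihood F test with a prior of 3.41 degrees of freedom). Benjamini-Hochberg adjustment ran over 12782 genes in each of 12 comparisons, with a threshold of 0.05. CPM are TMM-scaled counts, errors of log2 differences are SE and intervals are at 95%. Monosome libraries had TMM factors of 0.605 to 0.664, the other libraries 1.24 to 1.299. No column of other samples was present. The test was also run on simulated data, whose outcome is not reported here and is not used as support.

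The 10 enzymes, the gene lists and the comparisons were chosen with earlier results of these data known, so no list is independent evidence. Named were all 10 enzymes, Mkrn2, Hk1, the gene of smallest p of each list, listed copies with a mean of at least 10 counts, and the 5 genes most alike. Gm1840, a copy outside the list, is named as well. Slc2a1 is named beside Slc2a3, and Pfkp beside Pfkl. Values in every library are given for the enzymes of smallest p in each genotype comparison and for those at either end between WT polysome and monosome RNA, with Tpi1, Ldha and Gpi1 added after their values were seen. Alternatives were RLE scaling, no scaling, no filter, only genes averaging 5 CPM or more, a fit of just the libraries compared, the replicate number as a block, a robust prior, limma 3.58.1 voom with quality weights, DESeq2 1.42.0 and each library left out. Shared sequence was counted in 50-base windows of GENCODE transcripts. Plots used matplotlib 3.10.9 (Python 3.11.15).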

Additional observations from a re-analysis of the deposited data

Results flagged for a closer look

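Hk1, the hexokinase gene upstream of the 10 enzymes, differed between genotypes in 1 source more than in the others, by a test of the difference itself. The Hk1 polysome-to-monosome ratio was higher in KO-labelled than in WT cells by 2.57 ± 0.11 on the log2 scale (SE, 3 libraries per group, edgeR adjusted p 1.29e-09), and its monosome-to-total ratio differed by -2.61 ± 0.11 (edgeR adjusted p 1.02e-09). Over 21 alternatives the first ran from 2.49 to 2.62 and the second from -2.66 to -2.53, and each passed the threshold in all 21. None of the 10 enzymes below Hk1 passed this test.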

How the results depend on the processing

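No call on an enzyme changed between genotypes: 0 of 10 passed in each of 6 comparisons under every alternative run, the replicate block included, although the sign of an uncalled estimate changed in 71 cases with a library left out and 10 with another setting. Calls over all genes moved more. DESeq2 gave 32, 55 and 118 in total, polysome and monosome RNA against 2, 2 and 32, voom gave 67, 26 and 15, the replicate block 1, 9 and 60, and the fit of only the groups' libraries 1, 8 and 10. With a library left out they ran from 1 to 6, 1 to 6 and 30 to 71. A mean of at least 5 CPM or a robust prior gave 9 in polysome RNA, and RLE or no filter 5. For the polysome-to-total, polysome-to-monosome and monosome-to-total ratios DESeq2 gave 3, 27 and 18 against 0, 7 and 7, and with a library left out the counts ran from 0 to 4, 6 to 19 and 4 to 22.

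Between fractions the scaling decides the sign. With no scaling, WT polysome against monosome RNA gave 5 higher and 0 lower, KO-labelled 7 and 1, and monosome against total RNA 1 and 6 in WT, 1 and 7 in KO-labelled cells. The share of all genes called in that setting is not given beside these counts. The log2 values that changed sign became, for WT polysome against monosome RNA, Gpi1 0.0921, Aldoa 0.13, Tpi1 0.18, Pgk1 0.26, Eno1 0.61, Pkm 0.51 and Ldha 0.97, with Slc2a6 0.35, G6pc3 0.50, Pdk3 0.0757 and Pgm1 0.0296. In KO-labelled cells they became Gpi1 0.14, Aldoa 0.28, Tpi1 0.24, Gapdh 0.15, Pgk1 0.40, Eno1 0.48 and Pkm 0.50. For WT monosome against total RNA they became Gpi1 -0.15, Aldoa -0.38, Gapdh -0.50, Pgk1 -0.53, Pgam1 -0.0839, Eno1 -0.39, Pkm -0.77 and Ldha -0.94, and in KO-labelled cells Gpi1 -0.0341, Aldoa -0.49, Gapdh -0.72, Pgk1 -0.58, Eno1 -0.47, Pkm -0.75 and Ldha -1.01. The median of all genes moved by about the same amount.

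Enzymes lower in polysome than total RNA numbered 1 against 5 in WT with no filter. In KO-labelled cells they numbered 2 against 1 with no scaling, with a mean of at least 5 CPM and with voom, and 0 with no filter. The cause was not tested. With each library left out, the lower count ran from 0 to 4 in WT and 0 to 1 in KO-labelled cells, and monosome against total RNA gave 5 to 8 higher in WT and 6 to 7 in KO-labelled cells. The replicate block moved 1 of 120 enzyme results, Aldoa in WT polysome against total RNA, whose log2 value of -0.25 no longer passed, as it did not with RLE (adjusted p 0.0537), DESeq2 (0.051) or no filter (0.112). Fitting only the libraries compared ended the calls of Pgk1 in WT (0.0943) and Pkm in KO-labelled cells (0.0731), polysome against total RNA. The labels state no pairing, so the replicate numbers were not taken as pairs. Libraries with the same number had a median r of 0.014 between their deviations from the group means (45 pairs, from -0.06 to 0.168). These pairs lie both within and across genotypes, so this value cannot settle whether fractions of 1 genotype were paired. That 14 of 18 libraries correlated best with their own number is a hint of pairing from the data, not from the design. Precision is limited by 3 libraries a group, and Gapdh had only 60 to 175 counts per library. Intervals cover the spread between libraries only.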
